A study of Mus musculus with 9 samples.

Results

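Matrix metalloproteinases are secreted or membrane-bound zinc proteases that cut collagens, elastin, proteoglycans and other proteins around cells. The 10 genes followed here (Mmp2, Mmp3, Mmp8, Mmp9, Mmp10, Mmp11, Mmp12, Mmp13, Mmp14 and Mmp19) were taken by their gene names from the 55414 genes listed in the deposited tables, which hold 23 genes of the Mmp family in all. RNA was sequenced from cells lifted out of lung alveoli under a microscope by laser capture microdissection, from wild-type C57BL/6J male mice, in 3 groups of 3 libraries. Young came from young mice whose age is not in the labels, Aged from mice that received vehicle once every 2 weeks from 20 months of age for 4 months and were examined at 24 months, and PDK4-IN from mice of the same age dosed on the same schedule with PDK4-IN, an anthraquinone-based inhibitor of pyruvate dehydrogenase kinase 4. The study asked how the transcriptome of alveolar cells changes with age and with this inhibitor. Captured cells were combined before RNA was prepared, and nothing in the labels places the replicates of a group in separate animals, so that p-values measure only the spread between libraries, which may be technical.

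The enzymes are made as inactive precursors and become active when a propeptide is cut off or displaced, and tissue inhibitors of metalloproteinases (the Timp genes) block them. Collagenases open the triple helix of fibrillar collagen, gelatinases digest the unwound chains and basement membrane collagen, and stromelysins cut proteoglycans and activate other precursors. In the lung, fibroblasts supply several family members, while the macrophage elastase MMP12 and the granule enzymes MMP8 and MMP9 are best known from leukocytes, and several members belong to the proteins that senescent fibroblasts secrete.

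All 10 genes passed the filter on low counts in each comparison, Mmp8 with age only through the Aged libraries. Levels are given as CPM (the estimated count of a gene scaled to a common library total), and differences as log2 fold changes ± SE from edgeR's quasi-likelihood test, called where the p, adjusted by Benjamini-Hochberg over all genes tested, was under 0.05. With age, 7 of the 10 genes rose and 3 fell, against 21.4% of all 16123 genes tested called higher and 19.0% called lower (40.4% called in all). With PDK4-IN against Aged, 3 rose and 5 fell, against 23.9% and 25.7% of 16275 genes (49.6% called in all). The PDK4-IN libraries stood above Young in 8 of the 10 and below it in 0 by edgeR's quasi-likelihood test (1, Mmp14, at an unadjusted p under 0.05 and also with DESeq2), against 13.3% higher and 15.7% lower among 16553 genes (29.0% called in all). Leaving out any 1 library left the counts at 7 and 3 with age and at 3 and 5 for PDK4-IN against Aged, and gave 6 to 8 for PDK4-IN above Young. The median log2 fold change of the 10 genes was 1.25, -0.23 and 0.93 in the 3 comparisons, beside 0.01, 0.00 and 0.02 for all genes tested. The first and second comparisons share the Aged libraries, so their values are set side by side and are not independent of each other.

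**Figure D1:**
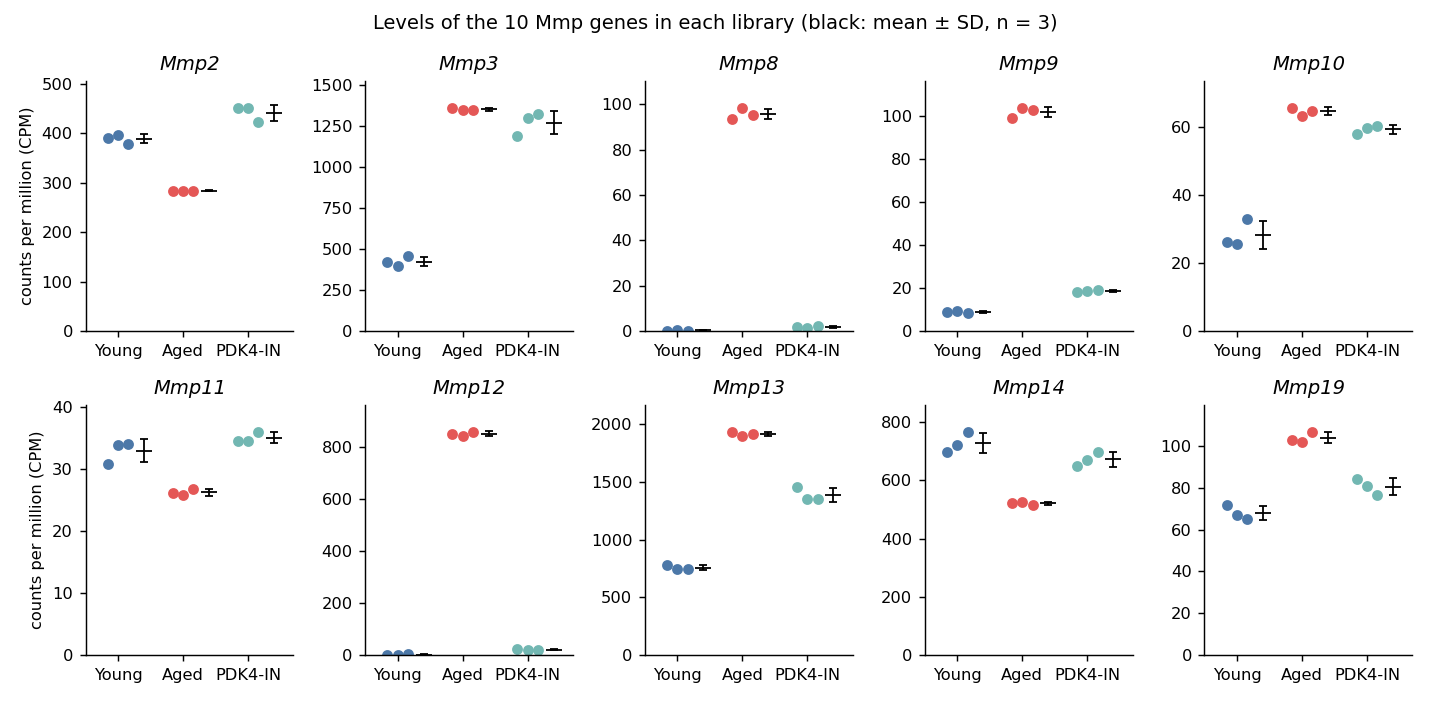
CPM (vertical axis from 0, a separate scale for each gene) of the 10 Mmp genes in the 3 Young, 3 Aged and 3 PDK4-IN libraries, drawn as points in the order of the replicate numbers, with the mean and SD in black (n = 3). Mmp8, Mmp9 and Mmp12 were high in Aged alone (95.7, 102 and 851 CPM), Mmp3, Mmp10 and Mmp13 were high in both groups of aged mice, and Mmp2, Mmp11 and Mmp14 were lowest in Aged.

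Library totals ran from 19456303 to 26660364 counts. Young 3 differed more from the other Young libraries (mean chi-square per gene of 17.5 and 17.2 between the counts) than these did from each other (2.93), and PDK4-IN 1 differed from PDK4-IN 3 by 15.8, against 2.51 to 2.88 among the Aged libraries. By the labels most captured cells were fibroblasts, and 11 of 12 fibroblast markers were at 1 CPM or more in each group (summed level of 13617 to 15899 CPM in Young, 11957 to 12117 in Aged and 12782 to 14247 in PDK4-IN), with Tcf21, a transcription factor of lung fibroblasts, under 1 CPM throughout. The 18 macrophage markers, such as Lyz2 (lysozyme) and Adgre1 (the surface receptor F4/80), summed to 48.6 to 57.7 CPM in Young, 4911 to 4977 CPM in Aged and 152 to 171 CPM in PDK4-IN. At a mean of 1 CPM or more stood 5 of the 18 in Young, 17 in Aged and 11 in PDK4-IN, and C1qc, a complement gene of macrophages, was at 0 in all Young libraries. The 8 smooth muscle markers, such as Acta2, summed to 2096 to 2299 CPM in Young, 440.1 to 463 CPM in Aged and 427 to 487 CPM in PDK4-IN. All 8 fell with age, 7 were below Young in PDK4-IN, and Des (desmin) was not called there (0.42 ± 0.20, edgeR adjusted p = 0.145). Of all genes tested, 19.0% were called lower with age and 15.7% lower for PDK4-IN against Young. The 15 alveolar epithelium markers summed to 301 to 312 CPM in Young, 411 to 419 CPM in Aged and 436 to 453 CPM in PDK4-IN, so that Young was the lowest group, as for Mmp3 and Mmp10. Only 4 of the 15 in Young, 7 in Aged and 6 in PDK4-IN had a mean of 1 CPM or more. Sftpc, Sftpb, Sftpa1, Sftpd, Lamp3 and Nkx2-1 were too low for a test in every comparison, so the sum rests on few genes. The 10 endothelium markers summed to 17.4 to 17.9, 32.9 to 35.1 and 24.6 to 27.0 CPM, with only 3, 6 and 5 of them at a mean of 1 CPM or more. With PDK4-IN against Aged, 1 of the 8 tested rose, 3 fell and 4 were not called, against 23.9% higher and 25.7% lower among all genes tested. The part of these cell types in the results was not tested. In bulk RNA, fewer cells of a type and less RNA per cell cannot be told apart. Pdk4, the gene of the enzyme that PDK4-IN inhibits, was at 26.1, 26.6 and 23.4 CPM in Young, 79.3, 75.6 and 71.2 CPM in Aged and 63.1, 61.3 and 56.3 CPM in PDK4-IN.

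Of the 10 genes, Mmp3, Mmp8, Mmp10, Mmp12 and Mmp13 lie in 1 cluster of 10 Mmp genes on mouse chromosome 9, and their promoters are shown because members of this cluster moved in 3 different ways. RefSeq windows of 300 bases (250 before and 50 after the annotated start of the gene, build GRCm38.p6, an older build than that of the deposited tables) were at hand for 7 of the 10 genes. The capitals mark TGANTCA, the binding motif of the AP-1 transcription factors, which reads the same on both strands and overlaps no match of the ETS motif below in these windows. Mmp12 has 2 annotated starts, and the second is printed.
Mmp13, chr9:7272264-7272563, plus strand: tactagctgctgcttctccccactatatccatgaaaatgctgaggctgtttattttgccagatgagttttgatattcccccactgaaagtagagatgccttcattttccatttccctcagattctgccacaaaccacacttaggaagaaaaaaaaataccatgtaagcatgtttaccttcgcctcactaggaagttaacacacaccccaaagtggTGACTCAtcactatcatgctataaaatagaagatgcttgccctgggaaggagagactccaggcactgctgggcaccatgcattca
Mmp3, chr9:7445572-7445871, plus strand: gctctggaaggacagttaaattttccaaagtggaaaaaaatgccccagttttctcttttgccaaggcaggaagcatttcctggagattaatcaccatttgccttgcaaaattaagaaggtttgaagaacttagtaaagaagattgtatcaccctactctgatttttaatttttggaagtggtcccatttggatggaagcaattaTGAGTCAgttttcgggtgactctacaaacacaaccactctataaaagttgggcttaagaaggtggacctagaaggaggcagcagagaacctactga
Mmp10, chr9:7502092-7502391, plus strand: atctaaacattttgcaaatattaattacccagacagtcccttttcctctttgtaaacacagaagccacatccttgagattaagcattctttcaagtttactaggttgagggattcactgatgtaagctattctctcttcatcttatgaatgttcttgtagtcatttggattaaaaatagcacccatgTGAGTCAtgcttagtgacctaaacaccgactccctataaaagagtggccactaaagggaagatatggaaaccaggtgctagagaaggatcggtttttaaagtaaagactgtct
Mmp12 (start 2), chr9:7347124-7347423, plus strand: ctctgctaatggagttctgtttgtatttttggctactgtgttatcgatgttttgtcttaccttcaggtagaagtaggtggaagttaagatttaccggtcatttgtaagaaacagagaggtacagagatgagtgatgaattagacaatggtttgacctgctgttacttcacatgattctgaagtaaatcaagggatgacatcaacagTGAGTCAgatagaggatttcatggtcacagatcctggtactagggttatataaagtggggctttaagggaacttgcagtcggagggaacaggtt
Mmp8, chr9:7558179-7558478, plus strand: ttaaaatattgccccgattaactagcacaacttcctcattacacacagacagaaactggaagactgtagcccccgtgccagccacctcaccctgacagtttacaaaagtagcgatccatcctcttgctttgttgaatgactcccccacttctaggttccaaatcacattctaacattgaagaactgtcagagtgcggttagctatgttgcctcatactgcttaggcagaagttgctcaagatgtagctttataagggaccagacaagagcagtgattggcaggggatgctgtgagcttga

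The motif stood at -35 from the annotated start in Mmp13, -46 in Mmp3, -63 in Mmp10 and -44 at the second start of Mmp12 (the start itself counted as 0, first base of the motif given). Mmp8 held no match in its window, nor did the first start of Mmp12, Mmp11 or Mmp14. Over the whole cluster, 8 of 12 windows (8 of 10 genes) held a match, against 7.81% of all 32851 promoter windows. Of the 13 Mmp genes elsewhere in the genome, 8 had a window, with a match in 0, and the other 5, Mmp2, Mmp9 and Mmp19 among them, were not searched. The 2 cluster genes without one were Mmp8 and Mmp27. The ETS core AGGAAG, searched on both strands, stood in 5 of the 8 windows of the 7 members (those of Mmp3, Mmp8, Mmp12, Mmp13 and Mmp14), against 35.4% of all windows. These matches describe letters only, and binding was not measured here.

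The collagenases Mmp13 and Mmp8 both rose with age but differed in how far they fell with PDK4-IN. Mmp13, the main collagenase of mouse connective tissue, was at 780.4, 745 and 745 CPM in the Young libraries, 1937, 1902 and 1919 CPM in Aged, and 1459, 1356 and 1350.0 CPM in PDK4-IN. The 3 groups did not overlap, and PDK4-IN lay between the others. The gene rose 2.54-fold with age (log2 fold change 1.33 ± 0.04, edgeR adjusted p = 2.0e-09), fell by 0.46 on the log2 scale with PDK4-IN against Aged (SE 0.04, edgeR adjusted p = 4.6e-06), and stayed above Young by 0.84 ± 0.04 (edgeR adjusted p = 1.4e-07).

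Mmp8, a collagenase stored in neutrophil granules, was at 0.303, 0.418 and 0.257 CPM in Young, which rested on 6, 9 and 5 counts. In Aged it was at 93.7, 98.4 and 95.1 CPM, and in PDK4-IN at 1.79, 1.46 and 2.27 CPM. Every Aged library was far above all others, and the PDK4-IN libraries stood slightly above Young. The log2 fold change was 8.15 ± 0.12 with age (edgeR adjusted p = 4.5e-12), -5.69 ± 0.11 for PDK4-IN against Aged (edgeR adjusted p = 6.1e-12) and 2.44 ± 0.25 for PDK4-IN against Young (edgeR adjusted p = 3.2e-05). As a ratio of mean CPM, PDK4-IN was 52.0 times below Aged and 5.65 times above Young.

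Among the 11 neutrophil markers, Ly6g, Mpo, Elane, Ngp and Retnlg had group means of at most 0.258 CPM. Csf3r, the receptor of granulocyte colony-stimulating factor, was high in Aged as Mmp8 was (0.0478, 7.68 and 0.0997 CPM on average in Young, Aged and PDK4-IN). The 11 markers summed to 10.3 to 12.3 CPM in Young, 47.1 to 54.2 CPM in Aged and 61.1 to 80.1 CPM in PDK4-IN, and most of this was S100a8, a calcium-binding protein of myeloid cells (9.20, 38.0 and 65.6 CPM on average). The 9 markers other than S100a8 and Csf3r, a sum chosen after the values were seen, were at 1.77 to 2.04 CPM in Young, 4.65 to 5.24 CPM in Aged and 3.12 to 5.73 CPM in PDK4-IN, so that Aged and PDK4-IN overlapped. Only 4 of the 11 markers had counts high enough for a test. All 4 rose with age, and with PDK4-IN against Aged S100a8 rose, Csf3r fell and the others were not called. Csf3r passed the filter only through Aged, so a rise with age and a fall with PDK4-IN were the only calls open to it. All 17 tested macrophage markers rose with age and fell with PDK4-IN, as Mmp8 did. Of all genes tested, 21.4% were called higher with age and 25.7% lower with PDK4-IN against Aged. Like Mmp8, some of the macrophage markers, such as C1qc and Adgre1, passed the filter with age only through Aged, so a rise was the only call open to them. With PDK4-IN against Aged, a marker that passed only through Aged could likewise only be called lower. In PDK4-IN only 11 of the 18 had a mean of 1 CPM or more, against 17 in Aged. Mmp8 per 100 CPM of macrophage markers was 0.629 ± 0.187 in Young, 1.94 ± 0.0561 in Aged and 1.13 ± 0.263 in PDK4-IN (SD, n = 3). The part of macrophage or neutrophil RNA in the change was not tested.

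The gelatinases moved in opposite directions with age. Mmp2, gelatinase A, which fibroblasts make constitutively, was at 391, 397 and 378 CPM in Young, 283, 284 and 284 CPM in Aged, and 451, 449.7 and 422 CPM in PDK4-IN. Aged was the lowest group and PDK4-IN the highest, with no overlap. The log2 fold change was -0.47 ± 0.05 with age (edgeR adjusted p = 1.7e-05) and 0.64 ± 0.04 for PDK4-IN against Aged (edgeR adjusted p = 5.0e-07), the latter a ratio of 1.55. The excess of PDK4-IN over Young was small (0.15 ± 0.05, edgeR adjusted p = 0.0277) and the call was lost when Young 1, 2 or 3 or PDK4-IN 1 or 2 was left out (adjusted p = 0.106, 0.0551, 0.0585, 0.0789 and 0.154). It was also lost with no filter on low counts (0.13 ± 0.06, edgeR adjusted p = 0.159), with only the 6 libraries compared (edgeR adjusted p = 0.0823) and with limma on TPM (0.08 ± 0.06, limma adjusted p = 0.387).

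Mmp9, gelatinase B, was at 9.09, 9.61 and 8.48 CPM in Young, 99.3, 104 and 103 CPM in Aged, and 18.1, 18.8 and 19.2 CPM in PDK4-IN. The groups were well apart, with PDK4-IN between Young and Aged. It rose 11.3-fold with age (log2 fold change 3.48 ± 0.07, edgeR adjusted p = 4.6e-11) and was 5.45 times lower with PDK4-IN than in Aged (-2.44 ± 0.06, edgeR adjusted p = 6.4e-11). Against Young, the PDK4-IN level was 2.07 times as high (1.02 ± 0.07, edgeR adjusted p = 2.0e-06). Per 100 CPM of macrophage markers, Mmp9 was at 17.4 ± 2.35 in Young, 2.07 ± 0.0514 in Aged and 11.5 ± 0.458 in PDK4-IN (SD, n = 3), so that it varied less across the groups than these markers did.

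The stromelysins Mmp3 and Mmp10 rose with age and were not called lower with PDK4-IN. Mmp3, stromelysin 1, was at 419, 398 and 456 CPM in Young, 1361, 1346 and 1349 CPM in Aged, and 1190.1, 1298 and 1321 CPM in PDK4-IN. Both groups of aged mice were far above Young, with PDK4-IN just under Aged and closer to it than to Young. The gene rose 3.19-fold with age (log2 fold change 1.66 ± 0.06, edgeR adjusted p = 2.7e-09), the difference of PDK4-IN from Aged was -0.08 ± 0.05 (edgeR adjusted p = 0.206), and PDK4-IN exceeded Young by 1.55 ± 0.06 (edgeR adjusted p = 3.3e-08).

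Mmp10, stromelysin 2, was at 26.2, 25.7 and 33.0 CPM in Young, 65.6, 63.3 and 64.8 CPM in Aged, and 57.8, 59.8 and 60.4 CPM in PDK4-IN. Its pattern was like that of Mmp3 at a lower level. The log2 fold change was 1.18 ± 0.09 with age (edgeR adjusted p = 2.9e-06), -0.11 ± 0.06 for PDK4-IN against Aged (edgeR adjusted p = 0.112) and 1.04 ± 0.09 for PDK4-IN against Young (edgeR adjusted p = 6.5e-06). On the deposited TPM values with limma, both genes were called lower with PDK4-IN than in Aged (Mmp3 -0.24, limma adjusted p = 8.9e-04, and Mmp10 -0.26, limma adjusted p = 0.00593), on a scale where the median of all genes was itself -0.109. Mmp3 and Mmp10 are related genes, and 3.76% and 3.94% of the 75-base words of their GENCODE M21 transcripts occur in other genes, mostly in each other.

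Mmp11, stromelysin 3, which unlike most of the family is activated inside the cell by furin, went the other way. It was at 30.7, 33.8 and 34.0 CPM in Young, 26.1, 25.7 and 26.8 CPM in Aged, and 34.5, 34.4 and 36.0 CPM in PDK4-IN. Aged lay below both other groups, which nearly met. The log2 fold change was -0.34 ± 0.07 with age (edgeR adjusted p = 0.00331) and 0.43 ± 0.07 for PDK4-IN against Aged (edgeR adjusted p = 3.6e-04), with limma on TPM at 0.22 (limma adjusted p = 0.0782). PDK4-IN against Young was 0.06 ± 0.07 (edgeR adjusted p = 0.545).

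Mmp12, the metalloelastase of macrophages, showed the largest rise with age among the 10 genes. It was at 0.707, 1.53 and 1.95 CPM in Young (14, 33 and 38 counts), 851, 843 and 859 CPM in Aged, and 22.1, 20.0 and 20.2 CPM in PDK4-IN. Aged was 609 times Young in mean CPM, and PDK4-IN was 41.0 times below Aged but still 14.9 times Young. In log2 terms the changes were 9.23 ± 0.15 with age (edgeR adjusted p = 1.1e-11), -5.35 ± 0.06 with PDK4-IN against Aged (edgeR adjusted p = 1.9e-13) and 3.86 ± 0.17 for PDK4-IN against Young (edgeR adjusted p = 4.0e-08). The genes with the most similar pattern over the 9 libraries were the macrophage genes Lyz2 and Adgre1, which averaged 6.82 and 0.350 CPM in Young, 2696 and 504 CPM in Aged, and 73.4 and 7.67 CPM in PDK4-IN. Mmp12 per 100 CPM of macrophage markers was 2.61 ± 1.02 in Young, 17.2 ± 0.0622 in Aged and 12.8 ± 1.52 in PDK4-IN (SD, n = 3). The part of macrophage RNA in these changes was not tested.

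**Figure D2:**
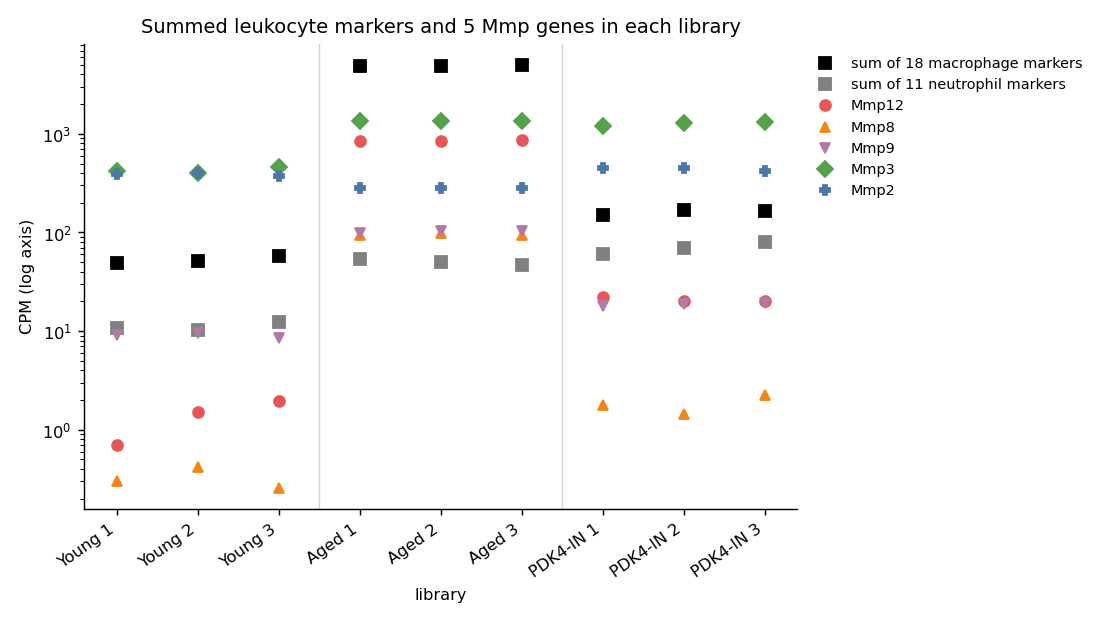
CPM on a log axis in each of the 9 libraries for the summed 18 macrophage markers and 11 neutrophil markers (squares) and for 5 Mmp genes (other symbols). Mmp12, Mmp8 and Mmp9 peaked in Aged together with the macrophage sum (4911 to 4977 CPM), the neutrophil sum, mostly S100a8, was highest in PDK4-IN (61.1 to 80.1 CPM), and Mmp3 stayed high in PDK4-IN (1190.1 to 1321 CPM) where the macrophage sum was at 152 to 171 CPM.

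Mmp14 is a membrane-anchored collagenase that also activates the MMP2 precursor at the cell surface. It was at 699, 720.4 and 768 CPM in Young, 521, 525 and 516 CPM in Aged, and 648, 671 and 699 CPM in PDK4-IN. Aged stood below both other groups, and PDK4-IN overlapped Young. The log2 fold change was -0.50 ± 0.05 with age (edgeR adjusted p = 2.0e-05) and 0.38 ± 0.05 for PDK4-IN against Aged (edgeR adjusted p = 7.5e-05). PDK4-IN against Young was -0.15 ± 0.05 and was not called (edgeR adjusted p = 0.0581), but became a call without Young 1 or without PDK4-IN 3 (edgeR adjusted p = 0.0345 and 0.0417). The direction with age and with PDK4-IN was thus the same for Mmp14 as for its substrate Mmp2.

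Mmp19, which cuts basement membrane proteins, was at 71.7, 67.1 and 65.0 CPM in Young, 103, 102 and 107 CPM in Aged, and 84.3, 80.9 and 76.5 CPM in PDK4-IN. PDK4-IN lay between the others, with no overlap. The log2 fold change was 0.60 ± 0.06 with age (edgeR adjusted p = 2.0e-05) and -0.36 ± 0.05 for PDK4-IN against Aged (edgeR adjusted p = 3.0e-04). Against Young the PDK4-IN excess was 0.21 ± 0.06 (edgeR adjusted p = 0.018), a call lost without Young 2, PDK4-IN 1 or PDK4-IN 2 (edgeR adjusted p = 0.0662, 0.0615 and 0.0833). It was also lost with no filter on low counts (edgeR adjusted p = 0.0577), with only the 6 libraries compared (edgeR adjusted p = 0.0503) and with limma on TPM, where the difference was 0.03 ± 0.11 (limma adjusted p = 0.853). Of the 75-base words of its transcripts, 23.2% also occur in other genes, most in Tmem198b, so that reads there could be split between genes.

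**Figure D3:**
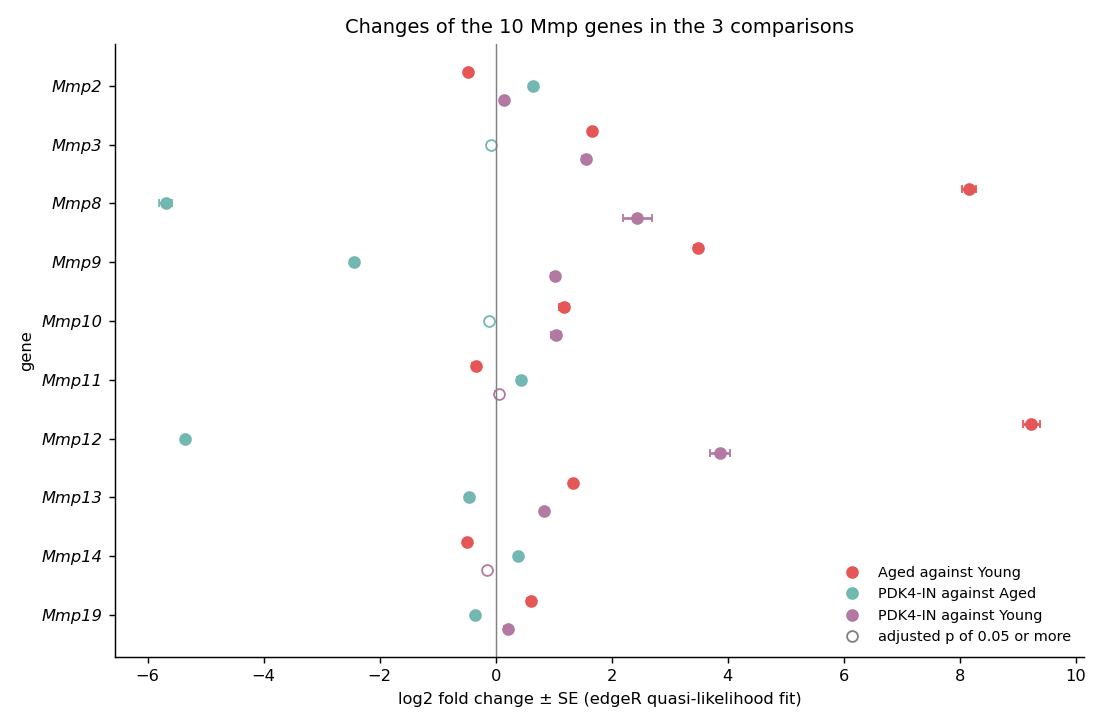
Log2 fold change ± SE (horizontal axis) of each of the 10 genes in the 3 comparisons, with open circles where the adjusted p was 0.05 or more. Mmp8 and Mmp12 moved most (8.15 and 9.23 with age), while Mmp3 and Mmp10 lay near 0 for PDK4-IN against Aged (-0.08 and -0.11).

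Levels can be compared between genes on the deposited TPM scale, which divides by gene length. In Young, Mmp13 stood first (445 ± 33.8 TPM), ahead of Mmp3 (389.8 ± 10.6), Mmp14 (347 ± 13.3) and Mmp2 (206 ± 16.7), while Mmp12 (1.26 ± 0.711) and Mmp8 (0.217 ± 0.0603) stood last (SD, n = 3). In that group the TPM ranges of neighbours in the order overlapped for Mmp19 and Mmp10 only. In Aged, Mmp12 had moved to the third place with 1006 ± 11.7 TPM, after Mmp3 (1251 ± 11.4) and Mmp13 (1134 ± 13.2). Neighbours that overlapped in Aged were Mmp10 with Mmp8 and Mmp19 with Mmp9, and Mmp11 was last (20.3 ± 0.847 TPM). In PDK4-IN the order was led by Mmp3 (1063 ± 12.0 TPM), Mmp13 (743 ± 71.3) and Mmp14 (282 ± 5.54), with Mmp12 back in the eighth place (21.2 ± 2.83 TPM) and overlapping Mmp11.

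The 10 genes together summed to 1481 ± 63.6 TPM in Young, 4039 ± 15.3 TPM in Aged and 2449 ± 95.5 TPM in PDK4-IN. They made up 97.1%, 98.6% and 98.1% of the TPM of all 23 Mmp genes. Mmp12 alone was 0.0868% of the sum of the 10 in Young, 24.9% in Aged and 0.864% in PDK4-IN, while Mmp3 was 26.4%, 31.0% and 43.4%. Mmp14 was 23.5% of the sum in Young, 6.22% in Aged and 11.5% in PDK4-IN, and Mmp2 was 13.9%, 3.68% and 8.90%. Mmp13 was 30.0%, 28.1% and 30.3%.

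**Figure D4:**
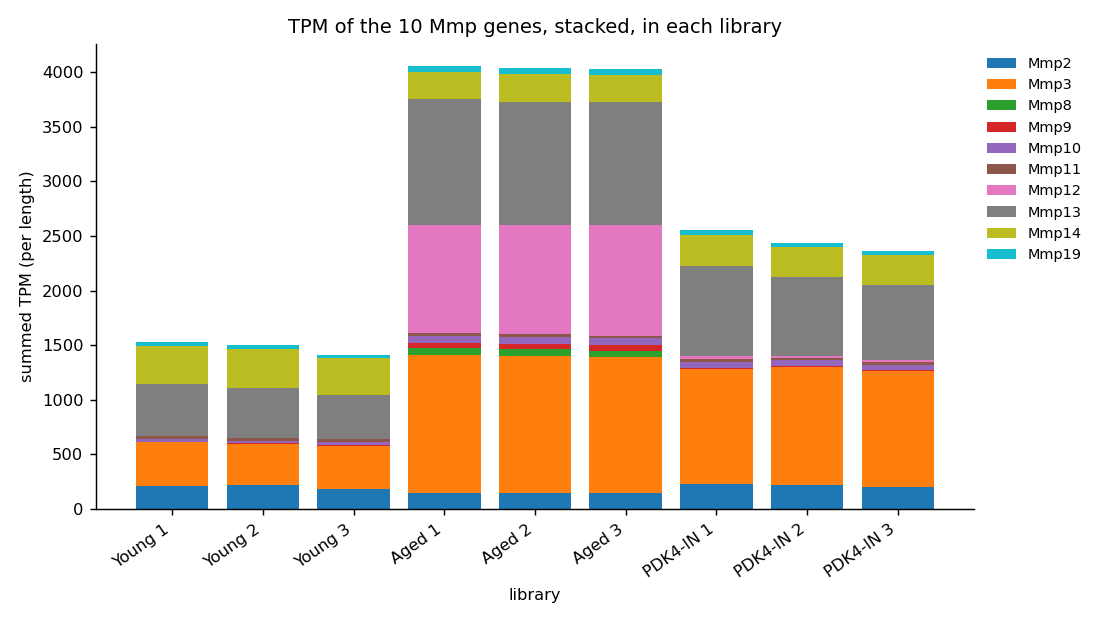
Deposited TPM of the 10 Mmp genes stacked in each of the 9 libraries (vertical axis in TPM from 0). The sum was highest in Aged, where Mmp12 made up 24.9% of it, and in PDK4-IN the bars were mostly Mmp3 (43.4%) and Mmp13 (30.3%).

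Along the chromosome 9 cluster the genes lie in the order Mmp13, Mmp12, Mmp1b, Mmp3, Mmp1a, Mmp10, Mmp8, Mmp27, Mmp20 and Mmp7, with few other genes between. With age, all 7 tested genes of the cluster rose, among them Mmp1b, one of a duplicated pair of mouse genes related to collagenase 1 (1.02 ± 0.18, edgeR adjusted p = 0.00119), and Mmp27 (3.16 ± 0.22, edgeR adjusted p = 9.2e-07). Of all genes tested, 21.4% were called higher with age. Mmp8 passed the filter with age only through Aged, so a rise was the only call open to it. With PDK4-IN against Aged, Mmp13, Mmp12, Mmp8 and Mmp27 fell, Mmp3, Mmp10 and Mmp1b were not called, and Mmp1a was called higher. Of all genes tested, 23.9% were called higher and 25.7% lower in that comparison. Mmp1a was not tested with age and passed the filter on low counts only through the PDK4-IN libraries, so a rise was the only call open to it. Mmp27 went from 0.575 CPM in Young to 5.24 in Aged and 0.419 in PDK4-IN, and its decrease against Aged was -3.62 ± 0.31 (edgeR adjusted p = 3.6e-06). At 0.151 to 0.563 CPM in PDK4-IN, Mmp27 passed the filter in that comparison only through Aged, so a fall was the only call open to it. Mmp1a stood at only 0.399, 0.419 and 1.05 CPM, its call (1.35 ± 0.36, edgeR adjusted p = 0.00921) was lost without Aged 1 (edgeR adjusted p = 0.0527), and Mmp1b shares 12.8% of its 75-base words with other genes, most with Mmp1a. The tested genes not called lower with PDK4-IN (Mmp1b, Mmp3, Mmp1a and Mmp10) lay next to each other. Mmp13 and Mmp12 preceded them, and Mmp8 and Mmp27 followed. The filter had fixed the direction of any call for Mmp1a and Mmp27, so their places in this order are not a result.

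**Figure D5:**
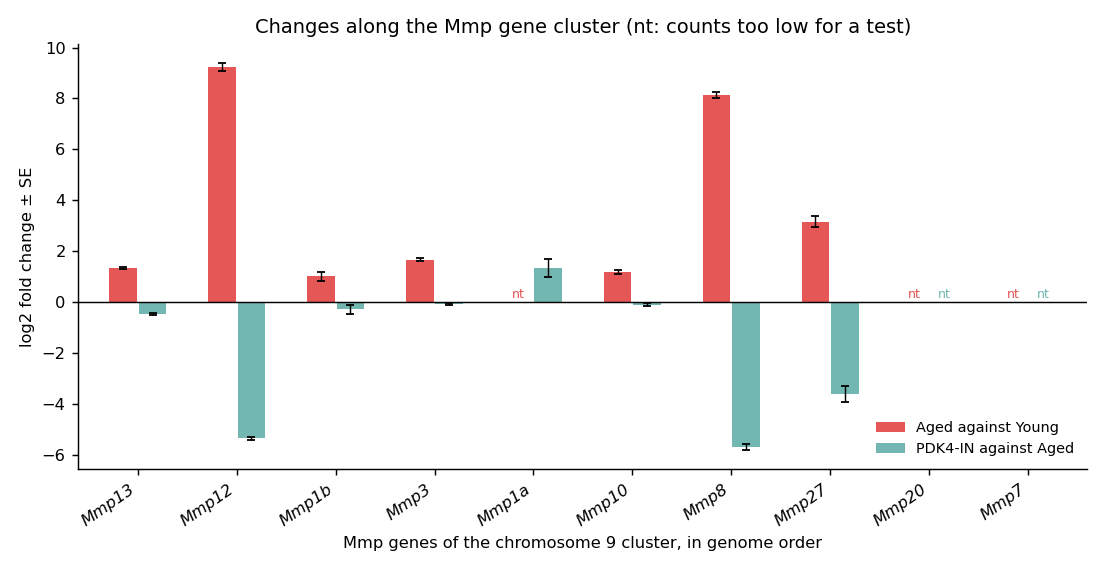
Log2 fold change ± SE (vertical axis) of the 10 Mmp genes of the chromosome 9 cluster in genome order, for Aged against Young and PDK4-IN against Aged, with "nt" where counts were too low for a test. Mmp12 and Mmp8 rose most with age (9.23 and 8.15) and fell most with PDK4-IN (-5.35 and -5.69), while Mmp3, between Mmp1b and Mmp1a, was at -0.08.

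Among the other 13 Mmp genes, 3 of 9 tested rose with age and 3 fell, against 21.4% and 19.0% of all genes tested. With PDK4-IN against Aged 3 of 10 rose and 2 fell, against 23.9% and 25.7% of all genes tested. Mmp1a, counted there as a rise, passed the filter only through PDK4-IN, and Mmp27, counted as a fall, only through Aged. Counts in lists this short are not read as results about the list, here and below. Mmp15 and Mmp16, both membrane-type enzymes, fell with age (-0.55 ± 0.12, edgeR adjusted p = 0.00471, and -0.54 ± 0.10, edgeR adjusted p = 0.0014), though limma on TPM called neither (limma adjusted p = 0.112 and 0.143). Mmp15 rose with PDK4-IN against Aged (0.61 ± 0.11, edgeR adjusted p = 7.1e-04), which limma on TPM did not call (limma adjusted p = 0.098). For Mmp16 the PDK4-IN libraries were at 14.3 CPM on average, against 16.4 in Aged and 23.7 in Young.

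Of the inhibitors, 4 of 5 listed genes were tested. With age 1 rose and 3 fell, against 21.4% and 19.0% of all genes tested. Timp3, the inhibitor bound to the matrix, fell from 526 to 141 CPM (-1.91 ± 0.08, edgeR adjusted p = 2.4e-08) and was at 176 CPM in PDK4-IN. Timp2, which MT1-MMP uses as a bridge to the MMP2 precursor, averaged 2762 CPM in Young, 1911 in Aged and 2457 in PDK4-IN (-0.54 ± 0.05 with age, edgeR adjusted p = 1.1e-05, and 0.37 ± 0.04 with PDK4-IN, edgeR adjusted p = 4.8e-05). Its direction was that of Mmp2 and Mmp14 in both comparisons. Timp1 was highest in PDK4-IN, at 1029 CPM against 734 in Aged and 624 in Young (0.50 ± 0.07 over Aged, edgeR adjusted p = 1.8e-04). Its rise with age (0.22 ± 0.07, edgeR adjusted p = 0.0376) was not called without Young 1 or 2 or Aged 1, 2 or 3 (edgeR adjusted p = 0.149, 0.137, 0.122, 0.0998 and 0.106), nor with DESeq2 (adjusted p = 0.0607).

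Among 5 tested activators and inducers, 3 rose with age and 1 fell, against 21.4% and 19.0% of all genes tested. With PDK4-IN against Aged 2 rose and 2 fell, against 23.9% and 25.7% of all genes tested. Plau, the urokinase that turns plasminogen into the protease plasmin, went from 49.2 CPM in Young to 121 in Aged and 38.0 in PDK4-IN (1.29 ± 0.06 with age, edgeR adjusted p = 5.4e-08, and -1.66 ± 0.05 with PDK4-IN, edgeR adjusted p = 6.3e-10). Bsg, the surface protein known as an inducer of metalloproteinases, rose with PDK4-IN from 1303 to 1673 CPM (0.37 ± 0.05, edgeR adjusted p = 1.7e-04). Furin, the convertase that activates MMP11 and MMP14, was at 173, 214 and 174 CPM, and fell with PDK4-IN (-0.30 ± 0.06, edgeR adjusted p = 0.00131), the direction opposite to those 2 enzymes.

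Of 13 matrix substrates, 2 rose and 8 fell with age, against 21.4% and 19.0% of all genes tested. With PDK4-IN against Aged 6 rose and 3 fell, against 23.9% and 25.7% of all genes tested. Bgn, the proteoglycan biglycan, averaged 3339, 1999 and 2714 CPM in Young, Aged and PDK4-IN (-0.75 ± 0.05 with age, edgeR adjusted p = 9.6e-07, and 0.45 ± 0.05 with PDK4-IN, edgeR adjusted p = 1.6e-05). Col5a1, a minor fibrillar collagen, fell with age from 987 to 619.9 CPM (-0.68 ± 0.05, edgeR adjusted p = 2.5e-06). Col3a1 was lowest in PDK4-IN, at 287, 247 and 214 CPM (-0.46 ± 0.05 against Young, edgeR adjusted p = 3.9e-05). Col1a1, another fibrillar collagen, averaged 3091, 2256 and 2712 CPM and rose with PDK4-IN against Aged (0.27 ± 0.04, edgeR adjusted p = 2.6e-04). Limma on TPM did not call this rise (limma adjusted p = 0.208).

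In the related ADAM and ADAMTS proteases, 6 of 20 tested genes rose and 8 fell with age, against 21.4% and 19.0% of all genes tested. With PDK4-IN against Aged 5 of 21 rose and 10 fell, against 23.9% and 25.7% of all genes tested. Adam8, a membrane protease of myeloid cells, had the pattern of Mmp9, with means of 18.3, 324 and 32.0 CPM (4.14 ± 0.08 with age, edgeR adjusted p = 3.2e-11, and -3.33 ± 0.08 with PDK4-IN, edgeR adjusted p = 3.7e-11). Adamts5, an aggrecanase, ran the other way, at 126, 42.0 and 83.5 CPM (-1.60 ± 0.11, edgeR adjusted p = 7.5e-07, and 1.00 ± 0.09, edgeR adjusted p = 5.7e-06).

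Of 12 listed transcription factors (7 AP-1 subunits, 4 ETS factors and Runx2, a Runt factor), 6 rose with age and the other 6 were not called. Of all genes tested, 21.4% were called higher and 19.0% lower with age. With PDK4-IN against Aged 1 rose and 7, Runx2 among them, fell, against 23.9% and 25.7% of all genes tested. Fos, an AP-1 subunit, averaged 6.53 CPM in Young, 24.9 in Aged and 5.65 in PDK4-IN (1.92 ± 0.12 with age, edgeR adjusted p = 5.5e-07, and -2.13 ± 0.10 with PDK4-IN, edgeR adjusted p = 2.0e-08). Ets2 averaged 57.9, 116 and 65.5 CPM (0.99 ± 0.06, edgeR adjusted p = 2.5e-07, and -0.82 ± 0.05, edgeR adjusted p = 3.5e-07). Jund, another AP-1 subunit, averaged 179.9, 177 and 246 CPM and was the factor that rose with PDK4-IN (0.49 ± 0.07 over Aged, edgeR adjusted p = 2.6e-04).

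The genes whose levels ran most closely with each member were found by the root mean square (RMS) difference of log2(CPM + 1), centred on each gene's own mean, over the 9 libraries and 16553 genes. Mmp8 was nearest to Pik3ap1 and Hcls1, both leukocyte signalling genes (RMS difference 0.13 for each), and Mmp12 to Lyz2 (0.15) and Adgre1 (0.30). Mmp9 was nearest to Arap3 (0.16) and Rasgef1b (0.17). The genes that stayed high in PDK4-IN had other neighbours, namely Plin2, a lipid droplet protein, and Serpini1 for Mmp3 (0.14 and 0.15), Slc10a6 and Gm38158 for Mmp10 (0.090 and 0.091), and Serinc2 and the complement gene C3 for Mmp13 (0.078 and 0.089). Mmp2 was nearest to Prnp, the prion protein gene (0.039), and Nkd2 (0.043), Mmp11 to Psrc1 (0.026) and Pidd1 (0.035), Mmp14 to Ybx3 (0.027) and Rcn2 (0.031), and Mmp19 to Lrrc8d (0.043) and Serpinb9 (0.049). Among the members themselves, Mmp11 and Mmp14 were closest (0.095) and Mmp12 was farthest from Mmp2, Mmp11 and Mmp14 (3.7 each).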

How the data were processed

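The authors deposited an estimated count (expected count) per gene and library, with fractions and without normalisation. TPM per library and gene length in bases were also deposited by the authors. Their columns of comparisons (fold changes, p-values) and 4 columns with a mean TPM per group were left out. Their processing notes name Bowtie 0.12.2 and GRCm39, and the quantifier and annotation are not given in the sources used here. Columns were assigned by name, and the names of the sheets refer to bleomycin and PCC1 instead, so the groups' identity rests on the column names. Of the genes, 1401 have no name. The 2 tables were joined by gene identifier through the identical Aged columns.

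Counts were rounded and fitted with edgeR 4.0.16 in R 4.3.3 (filterByExpr defaults, TMM, quasi-likelihood test), tested on simulated data, on 6 libraries for the first and second comparisons and all 9 for PDK4-IN against Young. DESeq2 1.42.0, limma 3.58.1 on log2(TPM + 1) and other scalings, filters, fits and left-out libraries were alternatives. Totals of 19456303 to 26660364 counts set the precision. In addition to the 10 genes, at most 4 called genes per list and comparison (the 2 lowest p each way), the 2 nearest genes per member, and Pdk4 are named. Mmp1b with age and marker genes were named after their values were seen. The members and lists were chosen with earlier results of these data known.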

Additional observations from a re-analysis of the deposited data

How the results depend on the processing

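With a change of at least 2-fold required as well, the called genes numbered 1776 with age, 1452 with PDK4-IN against Aged and 885 against Young, in place of 6511, 8078 and 4796. Of the 10 genes, those falling with age then numbered 0 in place of 3, those rising and falling with PDK4-IN against Aged 0 and 3, in place of 3 and 5, and those above Young with PDK4-IN 5 in place of 8. Limma on log2(TPM + 1) called 3060 genes for PDK4-IN against Young. In that comparison leaving out 1 library gave 3100 to 6176 calls, 6 to 8 of the 10 genes higher and 0 to 1 lower. The 1 lower gene was Mmp14, also called with DESeq2, with no filter on low counts, with 1 CPM required in 3 libraries, with limma on TPM and with the replicate block (1 gene lower in each). Mmp11 for PDK4-IN against Young, 0.06 with edgeR on all 9 libraries, was -0.05 with limma on TPM and -0.01 to 0.08 on leaving out 1 library (-0.01 without Young 1). The cause was not tested, except that the fold threshold removes small changes by construction.

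Among called genes, the share that was higher for PDK4-IN against Young was 45.9%, but 58.2% with upper-quartile factors and 33.5% with limma on TPM, and for PDK4-IN against Aged it was 48.2% and 30.2% with limma on TPM. With age, the 10 genes kept direction and call in all 140 values of single genes under the alternatives other than the fold threshold. With PDK4-IN against Aged 137 of 140 did, and against Young 117 of 140. Of 30 ratios of mean CPM, 1 moved by more than the spread with TMM-scaled CPM and 14 with TPM. The ratio of Mmp11 for PDK4-IN against Young, not a call, was 1.06 and became 0.964 with TPM, and no other ratio crossed 1.

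Replicate numbers are shared by the groups, but deviations of same-numbered libraries correlated at only -0.04 to 0.13, so the numbers were not taken as pairs. With the replicate block 6081, 7606 and 5371 genes were called in the 3 comparisons. Depth limits the low genes, since Mmp8 rested on 5 to 9 counts in each Young library.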
